A study of Mus musculus with 8 samples.

Results

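The genes described here are 10 that govern the identity of T cells in the blood: Tcf7, Lef1, Satb1, Bcl11b, Themis, Gata3, Tbx21, Eomes, Foxp3 and Ikzf2. They were taken by symbol from a count table of 21878 genes, and 10 of the 10 were found in it. Peripheral blood RNA was sequenced from female wild-type C57BL/6 mice aged 6-8 weeks. The Stress group (n = 4 libraries) had been restrained for 6 hours in a ventilated tube without food or water, and the Control group (n = 4 libraries) were littermates left in their cage, also without food or water. The labels number the libraries within a group and do not say whether each was 1 mouse, so the p-values measure the spread between these samples. The question is whether acute restraint changed the transcripts of these regulators in whole blood.

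Naive T cells circulate between blood and lymphoid organs and keep a quiescent state that rests on a small set of DNA-binding proteins. Tcf7 and Lef1 encode TCF1 and LEF1, partners of beta-catenin that carry the naive and memory state. Satb1 encodes a chromatin organiser, Bcl11b a zinc finger factor of T lineage commitment, and Themis a T cell receptor signalling protein of thymic selection that is not a transcription factor. Gata3 directs helper type 2 cells, while Tbx21 (T-bet) and Eomes encode T-box factors of type 1 helper cells, cytotoxic T cells and NK cells. Foxp3 is the lineage factor of regulatory T cells, and Ikzf2 encodes Helios, which many of these cells carry. The list therefore mixes genes of most T cells with genes of small subsets, and Tbx21 and Eomes are shared with NK cells.

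After restraint, none of the 10 genes changed past the test once libraries were scaled by TMM, a method that sets the typical gene to no change. Their log2 fold changes (Stress minus Control) lay between -0.33 for Foxp3 and -0.09 for Lef1, with a median of -0.19, against -0.03 for all 11718 genes tested. As a share of all blood RNA, the same transcripts stood at 45.3% to 52.9% of their Control means, and all 10 fell on that scale, as did 49.6% of all genes tested, whose median was -0.82. In bulk blood, fewer T cells and less RNA per T cell cannot be told apart.

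RefSeq promoter sequence (GRCm38.p6) was matched for 9 of the 10 genes, all but Ikzf2. The window used was the 250 bases before the most upstream RefSeq start of each gene. The windows of Themis, Eomes and Tbx21, which overlap no annotated exon, are shown because they differ in how many CpG dinucleotides they hold, and these are in capitals.
Themis, chr10:28668110-28668359, plus strand: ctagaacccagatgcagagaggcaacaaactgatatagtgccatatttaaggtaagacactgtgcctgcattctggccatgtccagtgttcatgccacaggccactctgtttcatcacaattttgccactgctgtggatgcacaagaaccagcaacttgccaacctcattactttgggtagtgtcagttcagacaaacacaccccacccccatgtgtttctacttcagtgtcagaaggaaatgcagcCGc
Eomes, chr9:118477939-118478188, plus strand: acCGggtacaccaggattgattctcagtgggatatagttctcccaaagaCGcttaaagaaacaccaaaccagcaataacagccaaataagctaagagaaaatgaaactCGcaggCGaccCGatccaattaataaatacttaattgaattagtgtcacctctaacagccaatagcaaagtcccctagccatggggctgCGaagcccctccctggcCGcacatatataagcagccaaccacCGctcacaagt
Tbx21, chr11:97115332-97115581, minus strand: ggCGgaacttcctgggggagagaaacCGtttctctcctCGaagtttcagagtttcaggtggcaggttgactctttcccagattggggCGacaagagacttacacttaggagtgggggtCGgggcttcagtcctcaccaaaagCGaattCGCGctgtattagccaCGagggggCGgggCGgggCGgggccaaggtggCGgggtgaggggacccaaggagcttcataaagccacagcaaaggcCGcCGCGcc

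Themis had 1 CpG in its window, Eomes 8 and Tbx21 16, against a median of 6 over 27025 genes. Of the other windows, Gata3 had 19, Lef1 11, Bcl11b 9, Foxp3 6 and Satb1 5. The windows of Lef1, Satb1, Bcl11b, Gata3 and Foxp3 overlap annotated exons. The Tcf7 window had 37 CpG but may hold transcribed sequence, so this count may not be that of a promoter. It was kept among the 9 windows of the search below and held no match. The windows were searched on both strands for 6-letter cores, none of which contains another. The TCF/LEF core TCAAAG was found in 1 of the 9 windows (Bcl11b, 89 bases before the start), against 14.1% of all windows, and the ETS core CCGGAA in 1 (Gata3), against 12.3%. The GATA core AGATAA (10.2% of all windows), the RUNX core TGTGGT (14.2%) and the glucocorticoid receptor core AGAACA (16.1%) were found in 0 of the 9. A match is a string of letters, and its absence says only that these letters are not in this window.

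The total count lay between 31471145 and 39014775 in Control libraries and between 25978683 and 29655725 in Stress libraries. Haemoglobin transcripts, which come from immature red cells, took 51.9% to 63.8% of the Control counts and 61.2% to 75.5% of the Stress counts. Outside them, 11409246 to 18771951 counts remained per Control library and 6352711 to 11007593 per Stress library, with the lowest in Stress replicate 3. The 10 genes together held 13056 to 30500 counts per Control library and 4797 to 11937 per Stress library. The 16 T cell markers (Cd3d, Cd3e, Cd4, Cd8a, Lck and others) were all detected and tested.

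Each gene was tested in edgeR by quasi-likelihood, and p was adjusted by Benjamini-Hochberg over the 11718 genes that reached 10 counts in 4 or more libraries. All 10 genes passed this filter. At an adjusted p below 0.05, edgeR called 0 of the 10 lower and 0 higher, against 3.69% of all genes lower and 10.4% higher. At the thresholds of the study (absolute log2 fold change above 1, adjusted p below 0.01), 0 of the 10 were called, against 1.71% of all genes in either direction and 0.0171% lower. The number lower at an unadjusted p below 0.05 was 0 with edgeR (against 13% of all genes), 0 with DESeq2 and 1 with limma-voom, and both of the latter tools also called 0 at an adjusted p below 0.05. All 10 estimates were below 0, as were 52.9% of all genes. The groups overlapped for all 10 genes, so 0 of them had every Stress library below every Control library, against 9.87% of all genes. With each library left out in turn, the median of the 10 lay between -0.22 (without Control replicate 2) and -0.11 (without Stress replicate 1), and 0 were called except without Stress replicate 2, where Themis was. Levels are given in CPM, counts scaled to a common library size, here the TMM-scaled one unless another is named, and each sample list runs from replicate 1 to replicate 4.

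**Figure D1:**
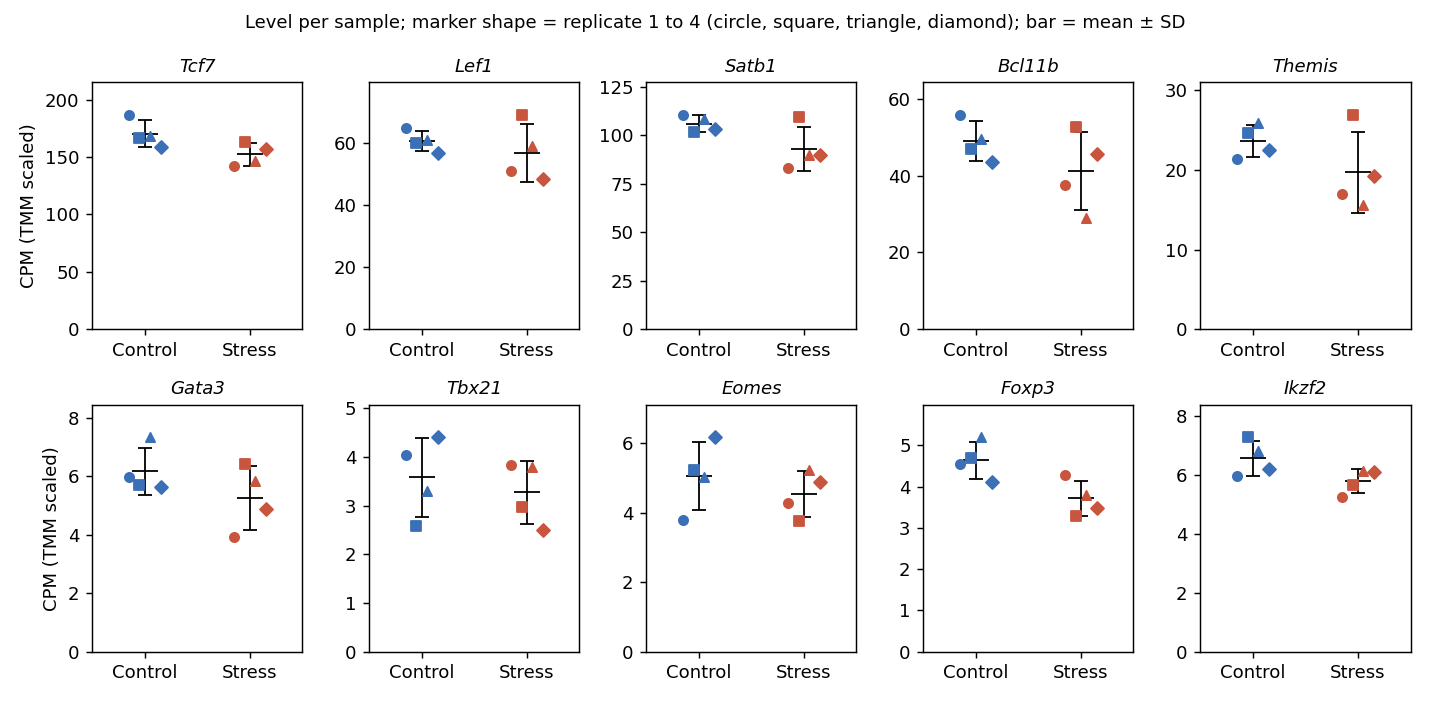
Level of each gene in the 8 libraries, in CPM on the TMM scale (vertical axes start at 0), with Control in blue, Stress in red, a marker shape per replicate number and a black bar for the mean ± SD (n = 4 per group). The groups overlapped for all 10 genes, and the Stress mean lay below the Control mean in each panel, most for Foxp3 (80.2% of Control) and least for Lef1 (93.8%).

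Tcf7 (GRCm38 chromosome 11, 52252371 to 52283014, minus strand) was the most abundant of the 10. It measured 187, 166.9, 168.4 and 159 CPM in the Control libraries and 142, 163.5, 146.2 and 157.2 CPM in the Stress libraries. Only the highest Stress library reached into the Control range, and the SD within groups was small (11.8 CPM in Control, 9.86 CPM in Stress). Its log2 fold change was -0.16 (95% confidence interval -0.42 to 0.10, edgeR adjusted p = 0.382), and -0.10 without Stress replicate 1.

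Lef1 (chromosome 3, 131110471 to 131224356, plus strand), the close relative of Tcf7, measured 64.8, 59.8, 60.9 and 56.8 CPM in Control and 50.8, 69.1, 58.8 and 48.5 CPM in Stress. Stress replicate 2 had the highest value of all and Stress replicate 4 the lowest, so the spread grew from a coefficient of variation of 5.42% to 16.4%. Its log2 fold change was the smallest of the 10 in size (-0.09, 95% confidence interval -0.36 to 0.17, edgeR adjusted p = 0.643). It was -0.17 without Stress replicate 2, -0.06 without Control replicate 1, -0.023 without Stress replicate 4 and -0.015 without Stress replicate 1.

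Satb1 (chromosome 17, 51736187 to 51833290, minus strand) measured 110.6, 101.6, 108.4 and 103.1 CPM in Control and 83.3, 109.2, 89.8 and 89.6 CPM in Stress. Here 3 of the 4 Stress libraries lay below every Control library, and Stress replicate 2 lay near the top of the Control range. On the log2 scale the difference was -0.19 (95% confidence interval -0.44 to 0.06, edgeR adjusted p = 0.293), and -0.11 without Stress replicate 1.

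Bcl11b (chromosome 12, 107910403 to 108003602, minus strand) measured 55.9, 46.9, 49.5 and 43.6 CPM in Control and 37.5, 52.5, 28.9 and 45.7 CPM in Stress. Stress replicate 3, the library with the fewest counts outside haemoglobin, was lowest, and without it the log2 fold change went from -0.25 (standard error 0.16, edgeR adjusted p = 0.311) to -0.10 (adjusted p = 0.637, same test).

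Themis (chromosome 10, 28668360 to 28883818, plus strand) measured 21.4, 24.7, 25.8 and 22.5 CPM in Control and 17, 26.9, 15.6 and 19.2 CPM in Stress. Stress replicate 2 was above every Control library and the other 3 were below all of them. With all libraries its log2 fold change was -0.26 (95% confidence interval -0.58 to 0.07, edgeR adjusted p = 0.263). Without Stress replicate 2 it was -0.42 and passed (adjusted p = 0.0381, same test), and it was -0.17 without Stress replicate 1 (adjusted p = 0.527) and -0.15 without Stress replicate 3 (adjusted p = 0.513), so the call for Themis rested on which of these libraries was kept.

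Gata3 (chromosome 2, 9857078 to 9890034, minus strand) was a low-abundance gene with 77 to 508 counts per library. It measured 5.98, 5.71, 7.34 and 5.61 CPM in Control and 3.92, 6.40, 5.84 and 4.87 CPM in Stress. Its log2 fold change was -0.24 (95% confidence interval -0.61 to 0.13, edgeR adjusted p = 0.361), and the groups overlapped through Stress replicates 2 and 3. The estimate was -0.14 without Control replicate 3 and -0.095 without Stress replicate 1, the lowest library.

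The T-box genes had no common order of samples. Tbx21 (chromosome 11, 97098071 to 97115331, minus strand) measured 4.05, 2.57, 3.29 and 4.41 CPM in Control and 3.83, 2.97, 3.79 and 2.50 CPM in Stress. Its groups overlapped over most of their range, with a log2 fold change of -0.14 (95% confidence interval -0.60 to 0.33, edgeR adjusted p = 0.709). The estimate was 0.004 without Control replicate 4, -0.014 without Stress replicate 4, -0.07 without Control replicate 1 or Stress replicate 2, and -0.27 without Control replicate 2, so its direction was not settled.

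Eomes (chromosome 9, 118478212 to 118486132, plus strand) measured 3.78, 5.22, 5.03 and 6.18 CPM in Control and 4.28, 3.76, 5.24 and 4.90 CPM in Stress. The lowest libraries of the groups were nearly equal, and Control replicate 4 was the highest. The log2 fold change was -0.16 (95% confidence interval -0.54 to 0.23, edgeR adjusted p = 0.586). It was -0.024 without Control replicate 4, -0.05 without Stress replicate 2, -0.10 without Stress replicate 1 and -0.27 without Control replicate 1.

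Foxp3 (chromosome X, 7573644 to 7595245, plus strand) had the largest estimate of the 10. It measured 4.54, 4.70, 5.201 and 4.10 CPM in Control and 4.28, 3.29, 3.79 and 3.49 CPM in Stress. Stress replicate 1 alone reached into the Control range, above Control replicate 4. The log2 fold change was -0.33 (standard error 0.16, 95% confidence interval -0.67 to 0.01), with an unadjusted p of 0.0579 and an edgeR adjusted p of 0.176. The estimate stood between -0.38 and -0.25 when each library was left out in turn.

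The exons of Foxp3 span 4577 annotated bases, and their overlaps with other genes, summed over those genes, came to 2082 bases. Of these, 856 were with Ppp1r3f and Ccdc22, which lie on the opposite strand and are also in the count table. The rest were with Flicr on the same strand and Gm36995 on the opposite strand, which have no row of their own there. How strand was used in counting is not given in the sources used here, so reads in the shared bases cannot be told apart. Ppp1r3f had a log2 fold change of -0.63 (edgeR adjusted p = 0.0623) and Ccdc22 of -0.08 (adjusted p = 0.805). The part of the overlapping genes in the Foxp3 value was not tested.

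Ikzf2 (chromosome 1, 69531214 to 69687245, minus strand) measured 5.98, 7.29, 6.82 and 6.21 CPM in Control and 5.26, 5.66, 6.15 and 6.11 CPM in Stress. The highest 2 Stress libraries lay above Control replicate 1 and below the other Control libraries. The log2 fold change was -0.19 (95% confidence interval -0.47 to 0.10, edgeR adjusted p = 0.362), and -0.12 without Stress replicate 1.

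The intervals bound what these libraries could show. The lower limits of the 10 intervals lay between -0.36 for Lef1 and -0.67 for Foxp3 on the TMM scale. A fall of 1 on the log2 scale lay outside all 10 intervals on this scale, and no change (0) lay inside all 10.

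Levels between genes were compared only per length, as CPM per kilobase of annotated exon sequence (RPKM). In Control, Tcf7 led with 64.9 ± 4.51 RPKM (SD, n = 4), followed by Lef1 with 6.89 ± 0.373, Bcl11b with 6.04 ± 0.639 and Satb1 with 5.57 ± 0.225 RPKM. The ranges of Lef1 and Bcl11b overlapped, and so did those of Bcl11b and Satb1. Themis had 2.02 ± 0.172, Gata3 1.55 ± 0.202, Tbx21 1.44 ± 0.329 and Eomes 1.22 ± 0.238 RPKM, each overlapping the next in its range. Foxp3 followed with 1.01 ± 0.0995 RPKM, overlapping Eomes, and Ikzf2 was lowest with 0.566 ± 0.0513 RPKM, below every Foxp3 value. The order of the 10 means was the same in Stress, from Tcf7 with 58.0 ± 3.76 to Ikzf2 with 0.499 ± 0.0362 RPKM. Exon length was taken over all annotated transcripts, so a gene of which blood uses only short transcripts is understated.

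The size of the difference between groups depended on what the counts were divided by. In CPM of total counts, Tcf7 measured 218.7, 245.9, 298.7 and 160.0 in Control and 113.8, 118.9, 74.1 and 173.0 in Stress. Foxp3 measured 5.31, 6.92, 9.23 and 4.12 in Control and 3.43, 2.39, 1.92 and 3.84 in Stress on this scale. Every Stress library lay below every Control library for Foxp3, but for Tcf7 Stress replicate 4 was above Control replicate 4.

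Of the 10 genes, 6 had no overlap between groups in CPM of total counts (Lef1, Satb1, Themis, Gata3, Tbx21 and Foxp3), against 23.5% of all tested genes with every Stress library below. Scaled by total counts alone, all 10 fell at an adjusted p below 0.05 in edgeR (log2 fold changes from -1.14 for Foxp3 to -0.92 for Lef1), against 49.6% of all genes lower. The split of all calls at this threshold went from 1223 genes higher and 432 lower with TMM to 52 higher and 5811 lower with total counts alone. The median of the 10 genes stood below the median of all genes by a like amount on each scale. The difference was -0.16 under TMM, -0.16 with counts outside haemoglobin and -0.17 with total counts. A change of scaling moves all genes of a library by the same factor, so this likeness follows from the method.

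Divided by the counts outside haemoglobin alone, a scaling chosen after the data were seen, 8 of the 10 genes fell at an adjusted p below 0.05 in edgeR, against 33.7% of all genes lower. Tbx21 and Eomes did not pass (log2 fold changes -0.53 and -0.56, adjusted p = 0.0718 and 0.0514). In CPM of counts outside haemoglobin, 2 of the 10 (Satb1 and Foxp3) had every Stress library below every Control library, against 24.6% of all genes. On this scale the median was -0.59 for the 10 genes and -0.43 for all genes.

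**Figure D2:**
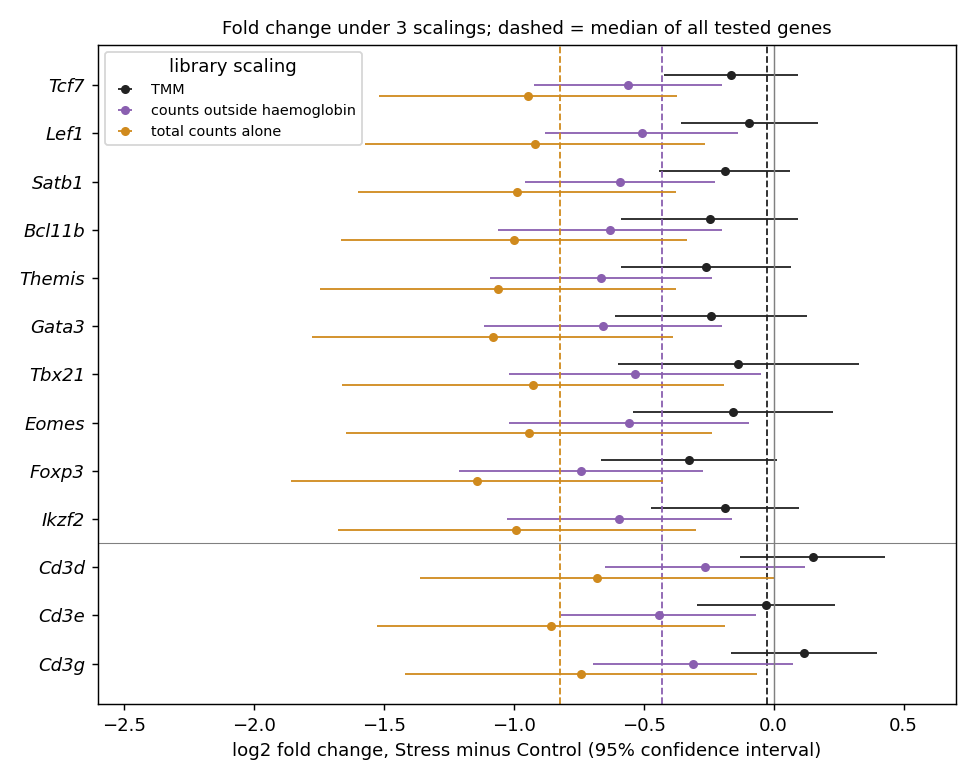
Log2 fold change (Stress minus Control) of the 10 genes and of Cd3d, Cd3e and Cd3g with edgeR's 95% confidence intervals under TMM (black), counts outside haemoglobin (purple) and total counts alone (orange), with a dashed line for the median of all tested genes on each scale (-0.03, -0.43 and -0.82). The 10 genes lie left of the dashed line of their scale, while Cd3d and Cd3g lie right of it.

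Each gene was also set against the summed counts of Cd3d, Cd3e and Cd3g, the invariant CD3 chains that every mature T cell carries. This ratio needs no scaling of libraries. The summed Cd3 counts lay between 1572 and 7741 per library. On the TMM scale the Cd3 genes had log2 fold changes of 0.15 (Cd3d), -0.03 (Cd3e) and 0.12 (Cd3g), with edgeR adjusted p from 0.458 to 0.903.

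Per 100 Cd3 counts, Themis gave 22.5, 25.1, 23.1 and 21.2 counts in Control and 18.2, 21.1, 13.04 and 20.9 in Stress. Every Stress library lay below every Control library, by 21.1 against 21.2 at the nearest. The difference of the mean log2 ratio was -0.35 (two-sided exact permutation test over 70 assignments, p = 0.0286, the smallest p that 4 against 4 allows), and it was the only one of 10 such tests under 0.05. Against all tested genes, 3.55% had every Stress library below every Control library in this ratio and 6.72% had every Stress library above. With Cd3e alone as the denominator the Themis difference was -0.25 (exact p = 0.171) and with all 16 T cell markers -0.26 (exact p = 0.114), so the separation depended on the Cd3 genes chosen. Without Stress replicate 3 it was -0.19 (exact p = 0.0571, the smallest that 4 against 3 allows).

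Foxp3 gave 4.78, 4.79, 4.65 and 3.86 counts per 100 Cd3 counts in Control and 4.59, 2.58, 3.18 and 3.80 in Stress. The overlap came from Stress replicate 1 and Control replicate 4, and the mean log2 ratio differed by -0.37 (two-sided exact permutation test, p = 0.0571). Set against Cd4, since regulatory T cells are mostly CD4 cells, Foxp3 gave 11.7, 13.1, 11.4 and 10.2 counts per 100 Cd4 counts in Control and 10.5, 7.65, 11.8 and 10.2 in Stress. This difference was smaller (-0.22, exact p = 0.257), with Stress replicate 2 as the low value, and was -0.09 without that library.

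Gata3 gave 6.29, 5.81, 6.56 and 5.29 counts per 100 Cd3 counts in Control and 4.21, 5.02, 4.90 and 5.30 in Stress (difference of the mean log2 ratio -0.30, exact p = 0.0571). Satb1 gave 116.5, 103.4, 96.9 and 97.2 in Control and 89.3, 85.6, 75.3 and 97.6 in Stress (-0.25, exact p = 0.0857). For both genes only Stress replicate 4 reached into the Control range.

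The other 6 ratios differed by -0.16 (Lef1) to -0.34 (Bcl11b), with exact p from 0.143 to 0.514. The mean ratio to the Cd3 genes was lower in Stress for all 10 genes and for 59.9% of all tested genes, and the median difference was -0.24 for the 10 and -0.09 for all. The 10 ratios share 1 denominator, so they are not independent of each other.

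**Figure D3:**
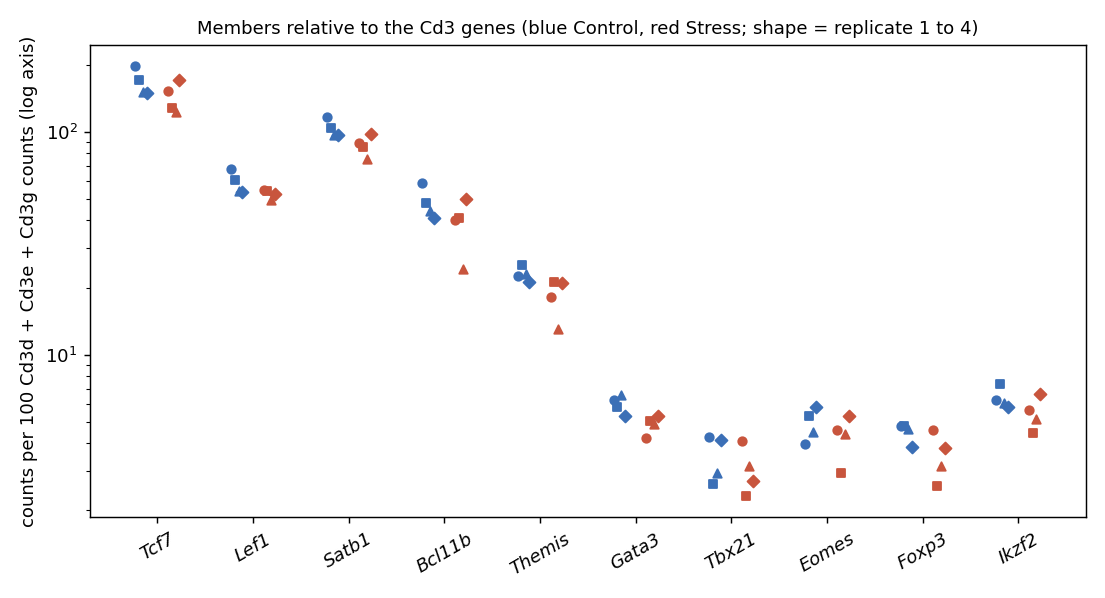
Counts of each gene per 100 summed Cd3d, Cd3e and Cd3g counts in each library (log axis), Control in blue and Stress in red, with a marker shape per replicate number. Only Themis has all 4 Stress values (13.04 to 21.1) below all 4 Control values (21.2 to 25.1).

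Tbx21 and Eomes were also set against NK cells, through the summed counts of Ncr1 (NKp46) and Klrb1c (NK1.1). Tbx21 gave 31.0, 18.9, 20.7 and 18.8 counts per 100 of these in Control and 28.3, 25.6, 17.9 and 20.9 in Stress. Eomes gave 28.9, 38.3, 31.6 and 26.4 in Control and 31.6, 32.4, 24.7 and 41.0 in Stress. Neither difference passed the test (differences of the mean log2 ratio 0.07 and 0.05, exact p = 0.829 and 0.743). With Ncr1 alone as the denominator the differences were larger, 0.46 for Tbx21 (exact p = 0.0571) and 0.44 for Eomes (exact p = 0.143), and did not pass either. The NK genes of this denominator had a log2 fold change of -0.58 for Ncr1 (edgeR adjusted p = 0.113) and 0.06 for Klrb1c (adjusted p = 0.896).

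Within groups, the genes fell into those that varied with each other and those that did not. Pearson's r of group-centred log2 CPM over the 8 libraries, given as a description, was 0.86 between Satb1 and Lef1, 0.79 between Tcf7 and Bcl11b, 0.77 between Satb1 and Gata3 and also 0.77 between Satb1 and Themis. Other pairs of these genes had lower values, such as 0.32 between Lef1 and Bcl11b and 0.19 between Bcl11b and Gata3. Eomes went against Tcf7 (r = -0.77) and Bcl11b (-0.70), and Tbx21 against Ikzf2 (-0.72). With Cd3e, r was 0.84 for Lef1, 0.76 for Satb1, 0.76 for Gata3 and 0.55 for Themis, but 0.17 for Tcf7 and 0.11 for Bcl11b. With Ncr1, r was 0.75 for Tbx21 and 0.64 for Eomes, against -0.87 for Bcl11b and -0.72 for Tcf7. Foxp3 had r = 0.81 with Ms4a1 (CD20 of B cells) and -0.36 with Cd3e. With Ms4a1 the other genes had r between -0.735 (Satb1) and 0.294 (Ikzf2). These points share library, depth and scaling.

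The tested genes whose group-centred pattern was most like each gene, of 11718 over 8 libraries, were Nat2 and Cxadr for Tcf7 (r = 0.98 and 0.97), Tbck and Gm4737 for Lef1 (0.98 and 0.97), and Hyls1 and Fbxo22 for Satb1 (0.97 and 0.97). They were Ints2 and Rif1 for Bcl11b (0.98 and 0.98), Stt3b and Kif20b for Themis (0.99 and 0.98), and Lysmd2 and Farsa for Gata3 (0.99 and 0.96). For the rarer genes they were Xpc and Trappc9 for Tbx21 (0.97 and 0.97), Sdf2l1 and Qdpr for Eomes (0.98 and 0.96), Peo1 and Rtcb for Foxp3 (0.98 and 0.98), and Hps6 and Frat1 for Ikzf2 (0.96 and 0.96). None of these genes was in a list used here. They were picked as the highest r among 11718 genes over only 8 libraries. High values come with such a selection, so they show no link between the genes.

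Other genes of the T cell programme gave the setting. Of 31 other T cell transcription factors, 3 fell and 1 rose at an adjusted p below 0.05, against 3.69% and 10.4% of all genes. The median log2 fold change of the list was -0.18, against -0.03 for all genes. The 3 that fell were Bach2, a repressor that keeps lymphocytes undifferentiated, with 58.3 ± 1.28 CPM in Control and 38.1 ± 7.71 CPM in Stress (SD, n = 4 per group; log2 fold change -0.61, edgeR adjusted p = 0.011), Ikzf3 (Aiolos; -0.79, adjusted p = 0.0293) and Foxo1 (-0.38, adjusted p = 0.0483), a factor of the naive state. B cells express all 3. Zeb2, which monocytes and effector lymphocytes carry, rose from 32.7 ± 4.95 to 49.9 ± 7.58 CPM (0.61, adjusted p = 0.0107). Id3 (0.38) and Batf (0.40) did not pass (edgeR adjusted p = 0.12 and 0.146).

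Of 14 surface and survival genes of naive T cells, 1 fell and 1 rose (median -0.11), against 3.69% and 10.4% of all genes. Cd55, a complement regulator that B cells also carry, fell by 0.69 on the log2 scale (edgeR adjusted p = 0.0065), and Itga6, an integrin that platelets also carry, rose by 0.78 (adjusted p = 0.00902). S1pr1, the receptor for exit from lymphoid organs, had every Stress library below every Control library and did not pass (-0.21, adjusted p = 0.224). Bcl2 (-0.44), Ly6c1 (0.33) and Igfbp4 (0.16) did not pass either.

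Of 15 genes listed for regulatory T cells, 14 were tested, 0 fell and 2 rose (median -0.02), against 3.69% and 10.4% of all genes. Those that rose were Entpd1 (CD39; from 9.68 ± 2.32 to 19.0 ± 3.20 CPM, log2 fold change 0.99, edgeR adjusted p = 0.00298) and Nrp1 (0.66, adjusted p = 0.0402), both of which myeloid cells also express. Lrrc32, also carried by platelets, was at 0.60 (adjusted p = 0.0792). Of the 14, 7 had estimates below 0 and 7 above. The 3 lower genes with the smallest p did not pass: Itgae at -0.30, Ctla4 at -0.51 and Il2ra at -0.36 (edgeR adjusted p from 0.131 to 0.252). The summed level of the list was 61.2 to 64.7 CPM in Control and 68.8 to 75.1 CPM in Stress, without overlap. Of all tested genes taken singly, 11.1% had every Stress library above every Control library. The sum holds Entpd1 (means of 9.68 and 19.0 CPM) and Nrp1 (3.81 and 5.99 CPM), so it does not show a rise shared by the list.

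A list labelled Wnt cofactors held 14 tested genes of the Wnt pathway around Tcf7 and Lef1, such as beta-catenin, the Groucho repressors and Apc. Of these, Bcl9l fell (log2 fold change -0.47, edgeR adjusted p = 0.0355) and 0 rose (median -0.02), against 3.69% and 10.4% of all genes. Apc (-0.54), Bcl9 (-0.29), Aes (0.45), Pygo2 (0.17) and Tle2 (0.41) did not pass (adjusted p from 0.0512 to 0.544).

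**Figure D4:**
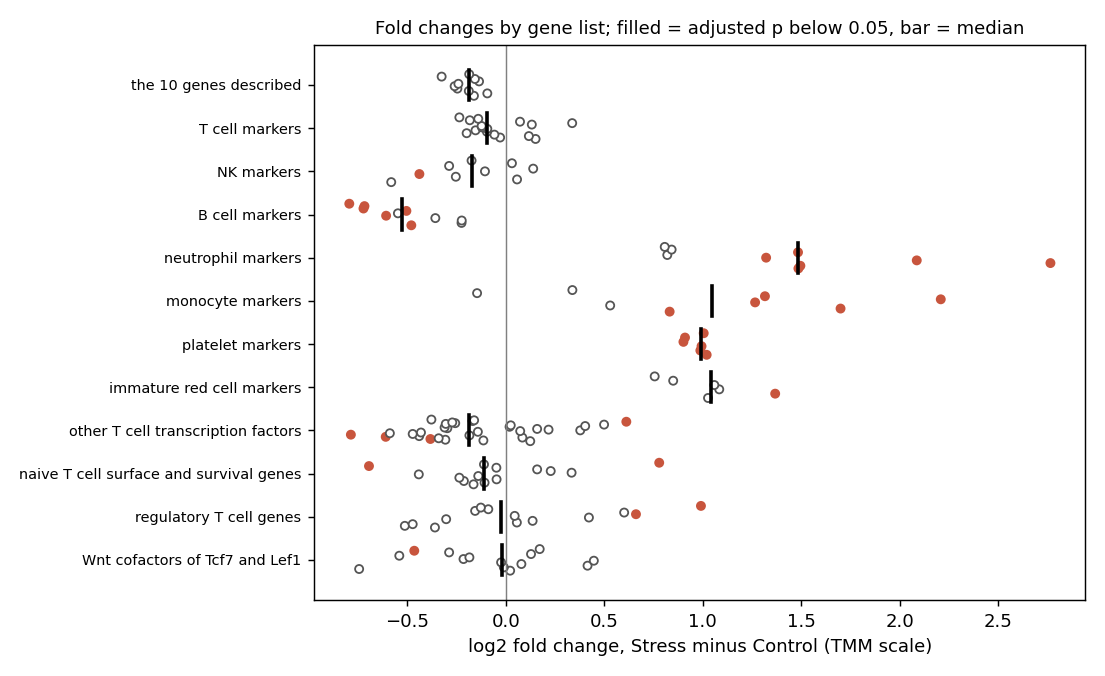
Log2 fold changes (Stress minus Control, TMM scale) of the tested genes of each list, one point per gene, filled where the edgeR adjusted p was below 0.05, with a black bar at the list's median. The 10 genes described lie between -0.33 and -0.09 with no filled point, around a median of -0.19, beside medians of -0.10 for T cell markers and -0.53 for B cell markers.

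Among markers of blood cell types, 0 of 16 T cell markers passed in either direction (median -0.10), with Cd27 at -0.24, Cd2 at -0.20 and Cd6 at -0.15 below, and Lat at 0.34, Cd3d at 0.15 and Lck at 0.13 above. Their summed level was 619 to 676 CPM in Control and 560 to 713 CPM in Stress. Of 10 B cell markers 6 fell (median -0.53), with the smallest p for Cr2 (-0.80), Fcer2a (-0.72) and Cd22 (-0.72), and their sum went from a range of 1061 to 1308 CPM to one of 722 to 949 CPM. Of 9 tested NK markers 1 fell, Klrk1 (-0.44, edgeR adjusted p = 0.0487), while Klrd1 (-0.25), Gzma (0.14) and Klre1 (0.03) did not pass. The summed NK level was 122 to 184 CPM in Control and 105 to 199 CPM in Stress.

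Myeloid and platelet genes were among those that rose. Of 9 tested neutrophil markers 6 rose (median 1.48, with the smallest p for S100a8, S100a9 and Retnlg), of 8 monocyte markers 5 rose (median 1.05, with the smallest p for F13a1, Lyz2 and Fn1, with Nr4a1 at -0.15), and of 6 platelet markers 6 rose (median 0.99, with the smallest p for Gp1ba, Itgb3 and Pf4). Of 6 genes of immature red cells 1 rose, Hba-a2 (1.37, edgeR adjusted p = 0.0346), while Hbb-bt (1.06) and Slc4a1 (0.76) did not pass. The summed levels did not overlap for neutrophil markers (160 to 308 CPM in Control, 486 to 729 CPM in Stress), monocyte markers (340 to 472 against 688 to 1167) and platelet markers (1218 to 1845 against 2815 to 3405). These calls depended on the scale. With total counts alone, 3 neutrophil, 2 monocyte, 0 platelet and 2 immature red cell genes rose in edgeR, against 52 of all 11718 genes. On that scale 11 of 16 T cell, 10 of 10 B cell, 8 of 9 NK and 1 of 8 monocyte markers fell, against 49.6% of all genes. The part of these cell types in the values of the 10 genes was not tested.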

How the data were processed

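Whole-blood RNA-seq of 4 Control and 4 Stress libraries was analysed from 1 table of raw read counts per gene symbol, deposited by the authors without normalization. The submitters' processing notes name HISAT2, featureCounts and mm10. The annotation, the strand setting and versions are not given in the sources used here. Groups were taken from the sample titles. The 10 genes, the surrounding lists and the tests were chosen with earlier results of these data known.

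Genes reaching 10 counts in 4 or more samples were fitted with R 4.3.3 and edgeR 4.0.16 (TMM, robust quasi-likelihood test, Benjamini-Hochberg adjustment over 11718 genes). Confidence intervals came from the same fit. DESeq2 1.42.0, the tool of the study, and voom from limma 3.58.1 were alternatives. Ratios of counts (pseudocount 0.5) were compared with two-sided exact permutation tests in scipy. The script was tested on simulated data. At an adjusted p below 0.05 in edgeR, 67.7% of genes simulated with a log2 fold change of -1 passed. Of those simulated at -0.5, 17.5% passed, so most falls of that size were missed in the simulation. It changed 200 genes drawn from all tested genes, while 1655 were called in the data at this threshold. The adjusted p depends on that number, so the share missed among the 10 genes may differ and was not simulated. Smaller falls were not simulated. Named genes were all 10 genes described, up to 3 genes of each list with the smallest p in each direction, and the 2 genes most like each member. Coordinates and exon lengths are from GENCODE M21 (GRCm38, the assembly of mm10). The alternatives were other normalizations, filters, tools and denominators, a replicate block and leaving out each library.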

Additional observations from a re-analysis of the deposited data

Results flagged for a closer look

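Foxp3 relative to the Cd3 genes held a Control library far from the others. Control replicate 4 had 3.86 Foxp3 counts per 100 Cd3 counts while the other Control libraries had 4.65 to 4.79, and the gap made up 0.863 of the group's log2 range, above Dixon's critical value of 0.829 for 4 samples. Of 46 groups of 4 libraries examined in this way, 1 stood out, where chance flags about 1 in 20. Without Control replicate 4 the difference of the mean log2 ratio (Stress minus Control) was -0.45, against -0.37 with all libraries and -0.51 to -0.23 when each library was left out in turn.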

How the results depend on the processing

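The count of the 10 genes lower at an adjusted p below 0.05 (edgeR) was 0 with TMM and stayed 0 with DESeq2, limma-voom, RLE, upper quartile, without haemoglobin genes, with both other count filters, with the replicate block and when scaled by the T cell marker genes, an alternative chosen after seeing the data. It was 10 with total counts alone, against 49.6% of all genes lower. With counts outside haemoglobin, also chosen after seeing the data, it was 8, against 33.7% of all genes. When each library was left out in turn it was 0 to 1 (1 without Stress replicate 2, Themis). The log2 fold change of Tbx21 ranged from -0.27 to 0.004 with a library left out. The count of genes with an exact p below 0.05 relative to the Cd3 genes was 1, and 0 with Cd3e alone. With the replicate block (sign flips over 4 pairs, smallest p 0.125) no gene could pass. Nor could any with a library left out, where the smallest exact p is 0.0571, so these counts of 0 were fixed in advance. Themis stood at that smallest exact p of 0.0571 whichever library was left out. Under the sum of T cell markers the gene that passed was Satb1 (-0.17, exact p = 0.0286) in place of Themis. Relative to the NK genes, Tbx21 ranged from -0.033 to 0.24 and Eomes from -0.073 to 0.17 with a library left out, on either side of 0, and they were 0.46 and 0.44 with Ncr1 alone. Over all genes, the study's thresholds called 198 up and 2 down with edgeR and 307 and 12 with DESeq2, 14 and 729 with total counts alone and 57 and 137 with counts outside haemoglobin. The surrounding lists also moved with total counts alone, as did all genes, of which 3.69% were lower with TMM and 49.6% on that scale. Lower calls went from 3 to 22 of 31 other T cell transcription factors and from 1 to 10 of 14 naive T cell genes. They went from 0 to 7 of 14 regulatory T cell genes and from 1 to 8 of 14 Wnt cofactors, and 0 genes of these lists rose.

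Same-numbered libraries did not deviate together (correlations from -0.16 to 0.06). The labels do not say whether the numbers pair the samples, and these correlations cannot decide it. With the replicate block, lower calls went from 432 to 240 over all genes, the lower calls among NK markers (Klrk1) and Wnt cofactors (Bcl9l) from 1 to 0, the higher call among immature red cell genes (Hba-a2) from 1 to 0, and the higher calls among regulatory T cell genes from 2 to 1. Tbx21 had 50 to 86 counts per Stress library and Foxp3 50 to 109, so their values carry counting error beside the spread between libraries.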
